A study of Mus musculus with 6 samples.

Results

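The Serpinb genes, the clade of intracellular serine protease inhibitors (serpins), were examined in whole skin of mice that lack Junb in the epidermis. Members were all genes of the table whose symbol starts with Serpinb, which gave 27 of the 23951 genes listed. Poly(A) RNA was sequenced from 3 JunBΔep mice (genotype JunB dep) and 3 control mice (JunB +/+). All 6 were littermates on a C57Bl/6 background, aged 6 to 7 months by the sample labels. JunBΔep mice carry a floxed Junb gene and a Cre recombinase driven by the keratin 5 promoter, so deletion is limited to cells that have expressed keratin 5, chiefly keratinocytes, while the other cells of the skin keep Junb. The JunBΔep samples were taken from lesional skin, both sexes were used in the study, and mice are named here by group and replicate number (0, 1 or 2). Levels are FPKM, mapped fragments scaled to transcript length and library size, as the authors deposited them, so levels can be set side by side between genes.

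A serpin offers a flexible stretch, the reactive centre loop, to a protease as if it were a substrate. The protease cuts the loop, the serpin refolds, and both remain covalently joined, so the bases that code for the loop largely set which protease is bound. Clade B members lack a classical secretion signal and mostly act in the cytoplasm and nucleus, and several are made in quantity by keratinocytes, where they are known for limiting cathepsins, granzymes and neutrophil proteases.

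Junb was read first as a check of the labels. It was at 59.3, 72.4 and 56.9 FPKM in the 3 controls, at 42.8 and 28.0 FPKM in JunBΔep 1 and 2, and at 129.6 FPKM for the library labelled JunBΔep 0. That library therefore goes against its label for this gene, in a tissue where many cells keep Junb. It also stands apart in its make-up. The summed FPKM of 5 mucosal epithelium markers was 3798 there and at most 1.41 in the other 5 mice. That of 7 neutrophil markers was 24995 there and 17.9 to 1479 elsewhere. Krt14, Krt6a, Krt6b, Krt16 and S100a9 were listed at 0 there, although Krt5 (3725 FPKM), Krt17 (4025 FPKM) and S100a8 (24456 FPKM) were highest in that library. A 0 can be a failed estimate, so these zeros are not read as a difference in make-up. The 4 adipocyte markers summed to 3.04 FPKM there and to 374 to 1662 FPKM in the other 5 mice. Whether that library came from the same site or layers of skin as the others was not tested, and this bears on each of its values below. Skeletal muscle markers summed to 14190 to 18220 FPKM across controls and 1366 to 3255 FPKM across JunBΔep mice. With all mice limma called 5 of these 6 markers lower, where 1.38% of all tested genes were called lower, but without the library labelled JunBΔep 0 it called Myh1 alone (limma adjusted p = 0.0459). Without both mice numbered 0, the limma adjusted p of the 6 markers was 0.297 to 0.579. Liver markers summed to 1208 FPKM in control 0 and at most 20.1 FPKM elsewhere. Krt5 and Krt10 were present in all 6 mice, at 1588 to 3725 FPKM and 1968 to 3872 FPKM. The 7 basal keratinocyte markers summed to 4108 FPKM in the library labelled JunBΔep 0 and 3833 to 6574 FPKM elsewhere. The 7 suprabasal markers summed to 14915 FPKM there and 6724 to 11513 FPKM elsewhere. Single markers parted both ways there, with Krt15 at 80.7 FPKM (947 to 2388 elsewhere) and Krt1 at 4466 FPKM (446 to 958 elsewhere). Log2 differences are given below with and without the library labelled JunBΔep 0. In bulk skin, fewer cells of a type and less RNA per cell cannot be told apart. The sample names fall into 2 number series, 23x (controls 0 and 1, JunBΔep 0) and 27x (control 2, JunBΔep 1 and 2), whose meaning the labels do not give, and p-values measure the spread between these mice only.

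No Serpinb gene passed the test between JunBΔep and control skin. With all mice the largest log2 differences were those of Serpinb3a (4.35) and Serpinb12 (2.65), and without the library labelled JunBΔep 0 these became 1.79 and 1.04, with that of Serpinb6a at −1.58. For Serpinb6a and Serpinb6d, the 3 JunBΔep mice all lay below the 3 controls. Of the 27 members, 22 averaged 0.1 FPKM or more over the 6 mice and were tested, and the other 5 (Serpinb9c to Serpinb9g) were below that level. With limma on log2(FPKM + 0.5) and Benjamini-Hochberg adjustment over 17021 genes at a threshold of 0.05, 0 members were called in either direction, where 0% of all tested genes were called higher and 1.38% lower. At an unadjusted p below 0.05, 0 of 22 members were higher (1.43% of all tested genes) and 2 of 22 were lower, Serpinb6a and Serpinb6d (6.13% of all tested genes). Without the library labelled JunBΔep 0, limma again called 0 members, where 120 of the 17021 tested genes were called lower and 11 higher. At an unadjusted p below 0.05, 2 members were then higher, Serpinb3a and Serpinb3d (2.04% of all tested genes), and 2 lower, Serpinb1a and Serpinb6a (6.05%). Serpinb3d averaged 0.0264 FPKM across controls and passed the filter only through JunBΔep mice, so its place there cannot be weighed against that share. For 1 gene, an exact two-sided permutation test of 3 mice against 3 cannot give a p below 0.1.

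The highest family sum was that of the library labelled JunBΔep 0. The 27 genes summed to 745, 734 and 637 FPKM in controls 0, 1 and 2, to 1772 FPKM for the library labelled JunBΔep 0, and to 394 and 509 FPKM in JunBΔep 1 and 2. The sum was thus above every control in the library labelled JunBΔep 0 and below every control in JunBΔep 1 and 2. Serpinb6a was the most abundant member in each control, with 37.9% to 41.8% of the sum, followed by Serpinb5. In the library labelled JunBΔep 0 the order was Serpinb3a (25.1%), Serpinb5, Serpinb12, Serpinb2 and Serpinb3b, and in JunBΔep 1 and 2 it was Serpinb5 and then Serpinb6a.

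**Figure D1:**
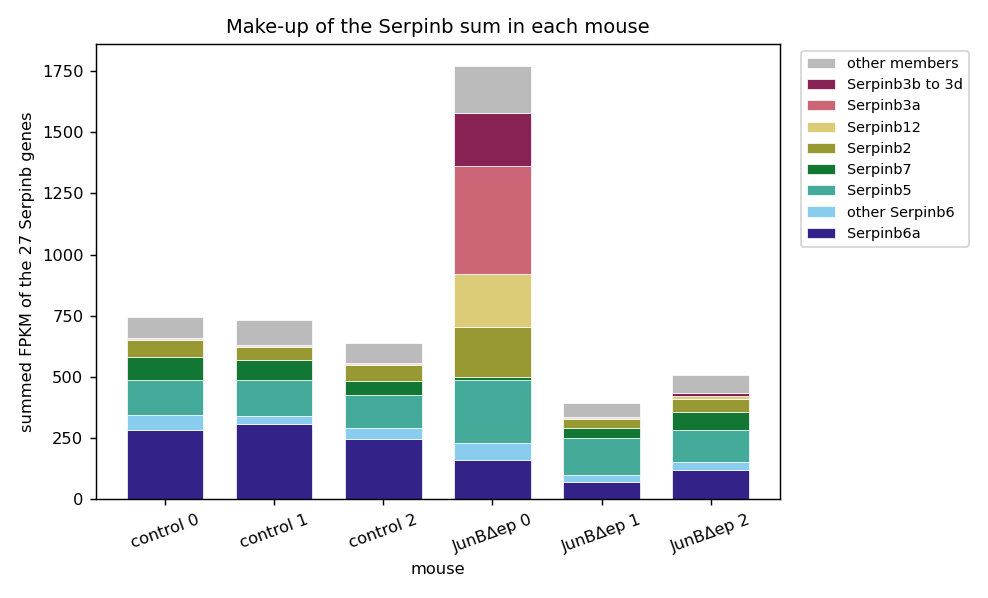
Summed FPKM of the 27 Serpinb genes (vertical axis) in each of the 6 mice (horizontal axis), with the parts taken by named members as stacked colours. Serpinb3a, its 3 close relatives and Serpinb12 fill most of the extra height in the library labelled JunBΔep 0, and the Serpinb6a part is smaller in all 3 JunBΔep mice than in any control.

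The members sit in 2 clusters on the mm9 build. By GENCODE vM1, 11 of the 26 members found there by symbol lie on chromosome 1 between 108757750 and 109505486, from Serpinb5 to Serpinb8. The other 15 lie on chromosome 13 between 32933961 and 34094663, from Serpinb1a to Serpinb6a. Serpinb10 was not matched in that annotation, and the start that RefSeq gives it lies inside the chromosome 1 cluster. On the log2 scale, the median difference of the 22 tested members from the control mean was 0.94 in the library labelled JunBΔep 0, −0.65 in JunBΔep 1 and −0.02 in JunBΔep 2. Over all tested genes these medians were −0.02, −0.005 and 0.004. Without Serpinb1b and Serpinb3c, which averaged under 0.1 FPKM over the other 5 mice, the median in the library labelled JunBΔep 0 was 0.82 over 20 members, beside −0.033 over the 16825 genes that passed the filter over those 5 mice.

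**Figure D2:**
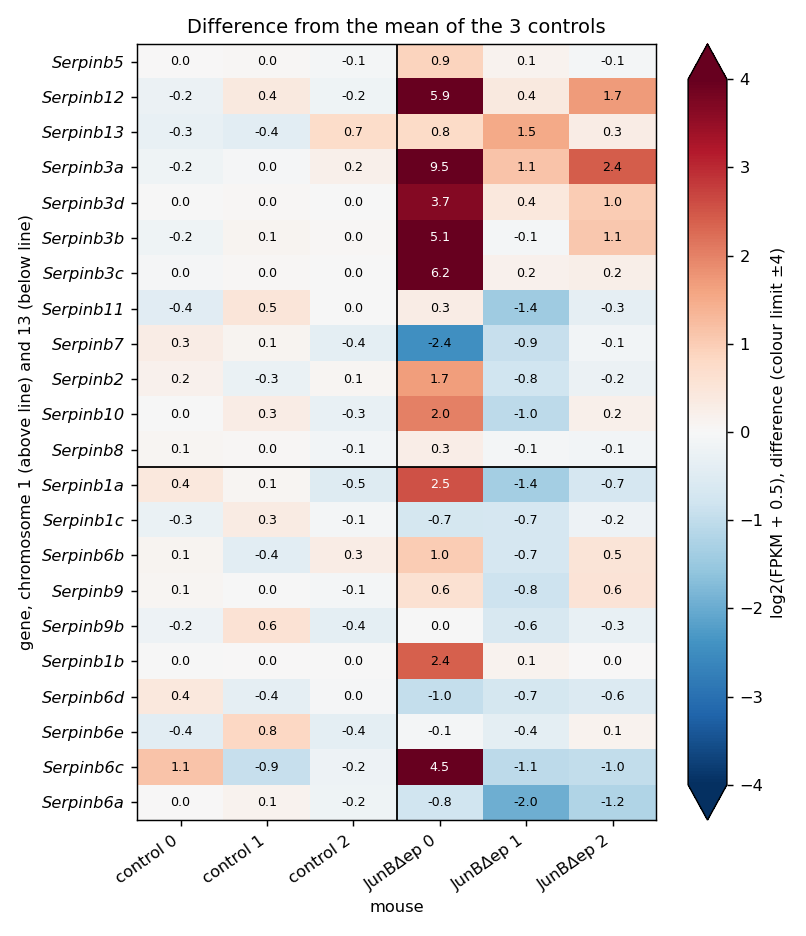
Difference of each mouse (columns) from the mean of the 3 controls, on the log2(FPKM + 0.5) scale, for the 22 tested Serpinb genes (rows, in order along chromosome 1 and then chromosome 13). Colours stop at ±4 and the printed values do not; the deepest red cells are Serpinb12, the Serpinb3 genes and Serpinb6c in the library labelled JunBΔep 0.

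Counted gene by gene, 15 of 22 members in the library labelled JunBΔep 0 were above every control (37.4% of all tested genes) and 4 were below every control (39.3%). In JunBΔep 1, 6 members were above (34.5%) and 12 below (33.1%), and in JunBΔep 2, 7 were above (25.1%) and 6 below (21.3%). Members above 10 times the highest control in the library labelled JunBΔep 0 numbered 7 of 22, namely Serpinb12, Serpinb1b, Serpinb3a, Serpinb3b, Serpinb3c, Serpinb3d and Serpinb6c, where 1.49% of all tested genes were so. Serpinb1b and Serpinb3c averaged under 0.1 FPKM over the other 5 mice and passed the filter through that library alone, so they had to be high in it. Among genes that passed the filter over the other 5 mice, 5 of 20 members were above 10 times the highest control (0.963% of 16825 genes) and 13 of 20 were above every control (36.8%) in that library. This limit of 10 times was chosen after the values were seen. All 3 JunBΔep mice lay above all controls for 3 members, Serpinb3a, Serpinb3c and Serpinb3d (5.62% of all tested genes), and below all controls for 2, Serpinb6a and Serpinb6d (9.16%). Without Serpinb1b and Serpinb3c, the members with all 3 JunBΔep mice above all controls numbered 2 of 20, Serpinb3a and Serpinb3d (5.55% of the 16825 genes). With JunBΔep 1 and 2 alone, Serpinb3a, Serpinb3c and Serpinb3d were above (11.1%), or 2 of 20 without Serpinb3c and Serpinb1b (11.1% of the 16825 genes), and Serpinb1a, Serpinb6a, Serpinb6c and Serpinb6d were below (13%). Serpinb3d averaged 0.0264 FPKM across controls, under the filter of 0.1 FPKM, so it passed only through JunBΔep mice. Serpinb3d had to be high among them, so its place in these counts above all controls cannot be weighed against the shares. Over the 22 tested members the median log2 difference was 0.25, with 15 positive and 7 negative, beside 0.03 over all tested genes, and it was 0.19 over the 20 members, with 13 positive and 7 negative. Without the library labelled JunBΔep 0 it was −0.13, with 8 positive and 14 negative.

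The Serpinb3 genes were nearly silent in control skin except for Serpinb3b, and all 4 had their highest value in the library labelled JunBΔep 0. They are the mouse relatives of the human squamous cell carcinoma antigens SERPINB3 and SERPINB4, epithelial inhibitors of cathepsins and chymotrypsin-like proteases. Because the 4 genes are so alike, the bases that code for their reactive centre loops are shown to mark where they part. Each stretch runs from the Glu-x-Gly codons of the hinge to the base before the conserved (Asp or Asn)-(His, Arg or Cys)-Pro-Phe codons, lies in the last exon, and was read from GENCODE vM1 transcripts. Serpinb3a is in lower case, and capitals in the others mark bases that differ from Serpinb3a in their alignment.
Serpinb3a, chr1:108942671-108942751, minus strand: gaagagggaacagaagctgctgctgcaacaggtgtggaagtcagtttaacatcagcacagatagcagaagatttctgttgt
Serpinb3b, chr1:109051024-109051104, minus strand: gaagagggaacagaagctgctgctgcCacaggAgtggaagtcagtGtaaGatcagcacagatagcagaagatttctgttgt
Serpinb3c, chr1:109168284-109168361, minus strand: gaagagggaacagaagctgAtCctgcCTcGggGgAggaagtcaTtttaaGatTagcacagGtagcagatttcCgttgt
Serpinb3d, chr1:108974848-108974928, minus strand: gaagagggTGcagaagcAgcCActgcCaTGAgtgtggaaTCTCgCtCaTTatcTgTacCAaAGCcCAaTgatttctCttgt
Over the loop, Serpinb3b differed from Serpinb3a at 4 of 81 bases, Serpinb3c at 12 with 3 bases missing, and Serpinb3d at 28. Identity to Serpinb3a over the loop was thus 95.1%, 84.6% and 65.4%. Over the rest of the coding sequence it was 92.9%, 92.0% and 90.6%, so the loop of Serpinb3d parted from Serpinb3a far more than its remaining codons did.

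Serpinb3a (chromosome 1, 108942164 to 108948914, 8 exons) was at 0.0565, 0.104 and 0.221 FPKM in controls 0, 1 and 2. It was at 445 FPKM for the library labelled JunBΔep 0 and at 0.878 and 2.87 FPKM in JunBΔep 1 and 2. The groups did not overlap, and the JunBΔep mice were spread over a far wider range than the gap that parted them from the controls. The log2 difference was 4.35 (standard error, SE, 2.11, limma adjusted p = 0.719) and 1.79 without the library labelled JunBΔep 0 (limma adjusted p = 0.246). Serpinb3d, at 0.0182 to 0.0414 FPKM in controls, was at 6.18, 0.208 and 0.554 FPKM in JunBΔep 0, 1 and 2. Its log2 difference was 1.70 (SE 0.82, limma adjusted p = 0.719), and 0.71 without the library labelled JunBΔep 0. With all mice it depended on the constant added to FPKM, at 3.10 with 0.1 and 1.21 with 1 in place of 0.5.

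Serpinb3b was the expressed member of the 4 in control skin, at 3.85, 4.80 and 4.48 FPKM. It was at 172 FPKM for the library labelled JunBΔep 0 and at 4.12 and 9.86 FPKM in JunBΔep 1 and 2, so that JunBΔep 1 lay within the controls. On the log2 scale it differed by 2.06 (SE 1.29, limma adjusted p = 0.722) with 0.51 without the library labelled JunBΔep 0 and 3.12 without JunBΔep 1. Serpinb3c was at 0.0139, 0.0436 and 0.0255 FPKM across controls and at 37.2, 0.0972 and 0.115 FPKM across JunBΔep mice. Outside the library labelled JunBΔep 0 its mean stayed under 0.1 FPKM, so it passed the filter through that library alone, and its log2 difference of 2.19 (SE 1.62, limma adjusted p = 0.722) became 0.20 without it. Within the summed FPKM of the 4 genes, which was 3.94 to 4.99 in controls and 660, 5.31 and 13.4 in JunBΔep 0, 1 and 2, Serpinb3a made up 1.43% to 4.65% in controls and 67.4%, 16.5% and 21.4% in JunBΔep mice. The share of Serpinb3a was therefore higher in every JunBΔep mouse than in every control, including JunBΔep 1, whose sum was close to those of controls.

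These values rest on reads that may fall on more than one Serpinb3 gene. Of the 50-base windows of the Serpinb3b transcript, 62.4% were found with at most 2 mismatches in another Serpinb gene, and the share was 52.2% for Serpinb3a, 50.8% for Serpinb3c and 30.3% for Serpinb3d. The authors' alignment allowed 2 mismatches and reads with multiple hits. In addition, the annotated range of Serpinb3b (chromosome 1, 109050517 to 109174938) overlaps that of Serpinb3c on the same strand. Levels of the single Serpinb3 genes are therefore uncertain, while at most 14.3% of the windows of any of the 4 genes had an exact copy elsewhere in the family. The mucosal epithelium markers, highest in the same library as these genes, summed to 0.394 and 0.546 FPKM in JunBΔep 1 and 2, where Serpinb3a was still above every control; their part in the value of the library labelled JunBΔep 0 was not tested.

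**Figure D3:**
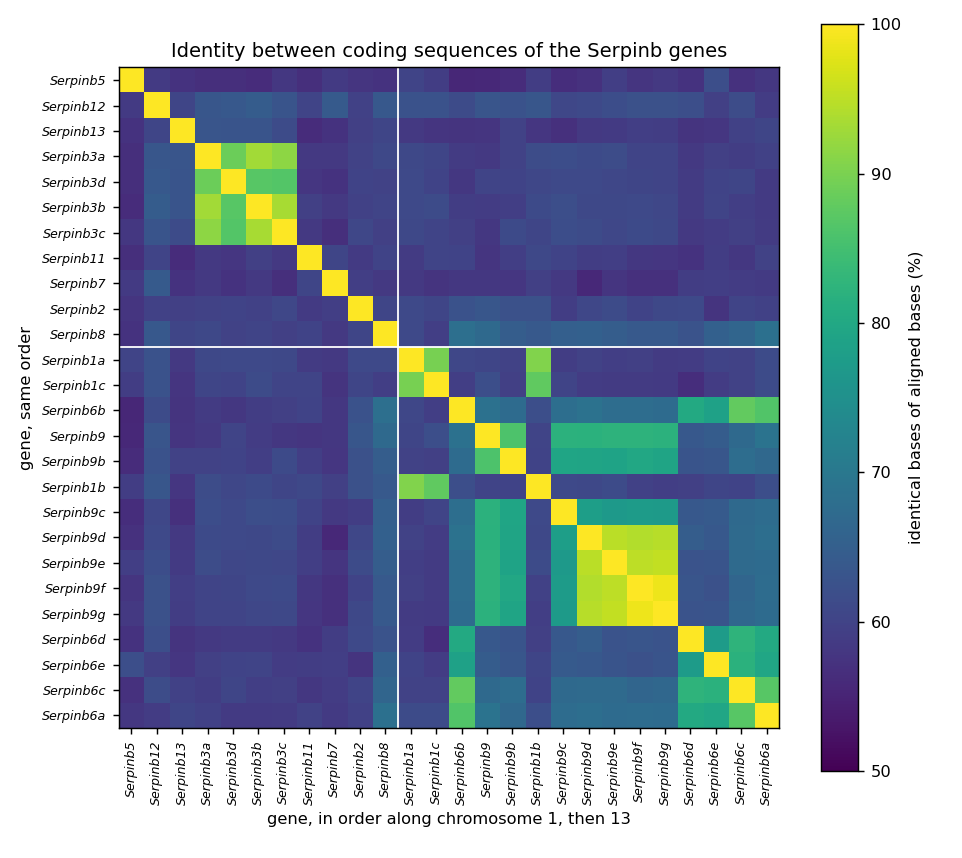
Identity between the coding sequences of the 26 Serpinb genes found in GENCODE vM1, as percent of aligned bases, in order along chromosome 1 and then chromosome 13. Bright blocks away from the diagonal are the Serpinb3, Serpinb1, Serpinb6 and Serpinb9 groups; the lowest pair shares 55.5% and the highest, Serpinb9f and Serpinb9g, 98.7%.

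The region before the transcription start was also compared among the Serpinb3 genes, because 3 of them have near-copies of one another there. Up to 80 bases before each RefSeq start (GRCm38.p6, placed by exact match on mm9) are shown, without those that GENCODE vM1 counts as exon, and with the motif TATAAA in capitals where it occurs on the gene's strand.
Serpinb3a, chr1:108948915-108948960, minus strand: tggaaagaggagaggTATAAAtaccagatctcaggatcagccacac
Serpinb3b, chr1:109057692-109057771, minus strand: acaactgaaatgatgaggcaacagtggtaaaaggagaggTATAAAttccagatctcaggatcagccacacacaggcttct
Serpinb3c, chr1:109174949-109175028, minus strand: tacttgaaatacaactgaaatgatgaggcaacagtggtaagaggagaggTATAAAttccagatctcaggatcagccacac
Serpinb3d, chr1:108980084-108980137, minus strand: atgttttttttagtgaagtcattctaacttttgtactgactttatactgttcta
TATAAA began 65 bases before the start in Serpinb3a, 41 in Serpinb3b and 31 in Serpinb3c, followed in each by a near-identical run of letters, and TATAAA was not found in the 300-base window of Serpinb3d. It occurred on the gene's strand in 6 of the 25 members with a promoter entry, the others being Serpinb12, Serpinb1c and Serpinb2, and in at least 1 entry of 9.77% of the 27025 genes with one.

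Serpinb12, like the Serpinb3 genes, was highest in the library labelled JunBΔep 0. It codes for an inhibitor of trypsin-like proteases and lies between Serpinb5 and Serpinb13. Serpinb12 was at 2.67, 4.40 and 2.85 FPKM in controls, at 216 FPKM for the library labelled JunBΔep 0, and at 4.38 and 11.6 FPKM in JunBΔep 1 and 2. The library labelled JunBΔep 0 and JunBΔep 2 were above every control, and JunBΔep 1 lay just under the highest control. The log2 estimate was 2.65 (SE 1.35, limma adjusted p = 0.722) and 1.04 without the library labelled JunBΔep 0. No 50-base window of Serpinb12 recurred in another member, so its level does not share the uncertainty of the Serpinb3 genes.

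Serpinb13, the neighbour of Serpinb12 and an inhibitor of cathepsins K and L, was low throughout. It was at 0.387, 0.2998 and 1.29 FPKM across controls and at 1.32, 2.596 and 0.832 FPKM across JunBΔep mice. Here JunBΔep 1 was the highest mouse, the only tested member for which that was so, and the groups overlapped. In log2 units the groups differed by 0.86 (SE 0.45, limma adjusted p = 0.722). Leaving out 1 mouse at a time, it was 0.91 without the library labelled JunBΔep 0, 0.52 without JunBΔep 1 and 1.22 without control 2.

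Serpinb5, or maspin, is a serpin of epithelial cells that does not act as a classical inhibitor. It was at 141, 145 and 133 FPKM across controls and at 258, 153 and 132 FPKM across JunBΔep mice. The library labelled JunBΔep 0 was the highest of the 6, and the other JunBΔep mice lay just above and just below the control range. Limma put the log2 difference at 0.31 (SE 0.27, adjusted p = 0.724), with 0.03 without the library labelled JunBΔep 0 and 0.51 without JunBΔep 2. In JunBΔep 1 and 2, Serpinb5 was 0.947 to 1.09 times the control mean.

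The plasminogen activator inhibitor of the clade is Serpinb2. It was at 70.5, 52.7 and 67.0 FPKM in controls, at 202 FPKM for the library labelled JunBΔep 0 and at 36.4 and 53.3 FPKM in JunBΔep 1 and 2. The library labelled JunBΔep 0 was above and JunBΔep 1 below every control. The log2 difference turned from 0.22 (SE 0.62, limma adjusted p = 0.912) to −0.51 without the library labelled JunBΔep 0. A target and its receptor were also highest in that library: Plau, urokinase, was at 16.0 to 22.2 FPKM across controls and at 58.6, 13.2 and 9.14 FPKM across JunBΔep mice, and Plaur, its receptor, at 2.48 to 4.67 FPKM across controls and at 64.0, 2.54 and 3.97 FPKM. Plat, the tissue activator, was at 10.3 to 10.5 FPKM across JunBΔep mice, inside its control range of 6.40 to 12.2 FPKM.

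Serpinb10, a serpin of blood-forming cells that neighbours Serpinb2, was at 5.61, 7.00 and 4.50 FPKM across controls and at 24.4, 2.46 and 6.54 FPKM across JunBΔep mice. Its highest and lowest values were both in JunBΔep mice, and its log2 difference of 0.39 (SE 0.75, limma adjusted p = 0.862) became −0.42 without the library labelled JunBΔep 0. In GENCODE vM1 the Serpinb2 range (chromosome 1, 109408000 to 109432055) overlaps on the same strand a gene named Serpinb10-ps, so reads of the pair may not be fully separate. Serpinb11 was at 20.1, 38.4 and 27.03 FPKM across controls and at 33.6, 10.05 and 21.5 FPKM across JunBΔep mice, with overlapping groups. Its log2 difference was −0.49 (SE 0.47, limma adjusted p = 0.736), and it was −0.88 without the library labelled JunBΔep 0, −0.032 without JunBΔep 1 and −0.26 without control 1.

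Serpinb7 and Serpinb8, also of the chromosome 1 cluster, differed in spread. Serpinb7, also called megsin, is known because its human counterpart is lost in Nagashima-type palmoplantar keratosis, a disorder of the epidermal barrier. Serpinb7 was at 94.0, 82.8 and 57.8 FPKM across controls and at 13.6, 40.5 and 70.4 FPKM across JunBΔep mice. The library labelled JunBΔep 0 and JunBΔep 1 were below every control and JunBΔep 2 was inside their range, so the library labelled JunBΔep 0, which was high for most members, was the lowest of all 6 for this gene. This gave a log2 difference of −1.16 (SE 0.59, limma adjusted p = 0.722) and −0.52 without it. Serpinb8, an inhibitor of the proprotein convertase furin, had the smallest SE of the 18 members given one, at 38.1, 36.8 and 33.3 FPKM across controls and at 43.2, 34.4 and 33.0 FPKM across JunBΔep mice. Its log2 difference was 0.02 (SE 0.16, limma adjusted p = 0.968), and −0.10 without the library labelled JunBΔep 0, and its sign also turned under quantile normalization. Furin itself was at 22.4 to 42.4 FPKM across controls and at 64.9, 34.4 and 30.3 FPKM across JunBΔep mice.

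JunB is a subunit of AP-1, a transcription factor known to bind the letters TGAGTCA or its reverse complement TGACTCA. These letters, searched on both strands in windows of 250 bases before to 50 bases after the start, occurred in at least 1 entry of 5.95% of the 27025 genes with a RefSeq promoter entry and in 2 of the 25 members with one, Serpinb7 and Serpinb8. They do not overlap TATAAA. The 80 bases before those starts are shown with the motif in capitals.
Serpinb7, chr1:109319186-109319265, plus strand: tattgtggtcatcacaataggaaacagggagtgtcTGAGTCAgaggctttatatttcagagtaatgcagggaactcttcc
Serpinb8, chr1:109486503-109486582, plus strand: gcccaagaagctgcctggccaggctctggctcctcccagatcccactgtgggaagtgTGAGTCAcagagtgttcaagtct
The motif began 45 bases before the start of Serpinb7 and 23 bases before that of Serpinb8, and a second copy began 13 bases after the start of Serpinb8. The start shown for Serpinb7 is the RefSeq one, inside the longer range that GENCODE vM1 gives (109296232 to 109349266). Of these 2 genes, Serpinb7 was below all controls in 2 of 3 JunBΔep mice and Serpinb8 had the log2 difference nearest to 0. No binding was measured here.

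**Figure D4:**
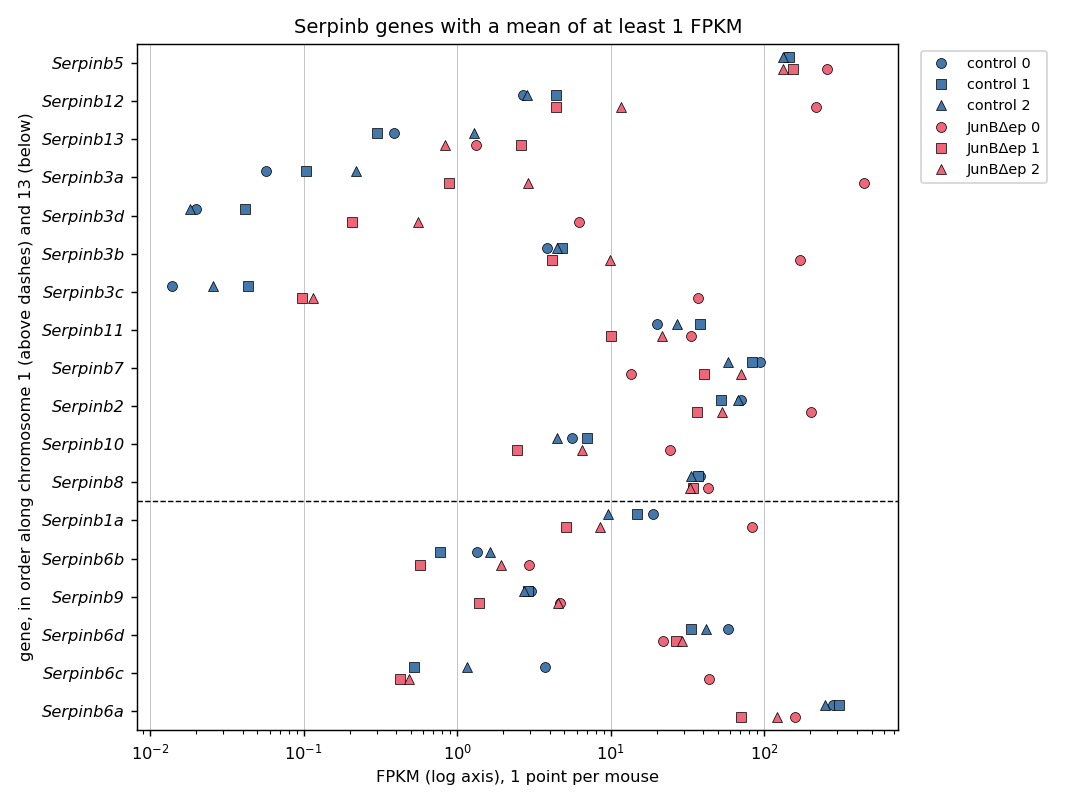
FPKM of the 18 Serpinb genes averaging 1 FPKM or more (rows) on a log axis, with 1 point per mouse, controls in blue and JunBΔep mice in red; circles, squares and triangles are replicates 0, 1 and 2. The red circles (library labelled JunBΔep 0) lie far to the right for the Serpinb3 genes, Serpinb12 and Serpinb6c, and all red points lie left of all blue points for Serpinb6a and Serpinb6d.

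Serpinb6a, on chromosome 13, was the leading Serpinb gene of control skin. It is the mouse counterpart of human SERPINB6, an intracellular inhibitor of cathepsin G. Serpinb6a (chromosome 13, 34009787 to 34094663, 8 exons in its longest coding transcript) was at 283, 307 and 247 FPKM across controls and at 160, 70.9 and 121 FPKM across JunBΔep mice. Every JunBΔep mouse was below every control, at 0.573, 0.254 and 0.432 times the control mean in JunBΔep 0, 1 and 2. The mean was 279 ± 29.8 FPKM across controls and 117 ± 44.6 FPKM across JunBΔep mice (SD, n = 3 each). The fitted log2 difference was −1.32 (SE 0.32, limma unadjusted p = 0.00583 and adjusted p = 0.203). It was −1.58 without the library labelled JunBΔep 0, and over all alternatives the adjusted p from limma ran from 0.0968 to 0.681. The groups were thus apart for this gene, and the difference did not pass the threshold over all genes. Within the 2 number series of the sample names it was −0.88 and −1.41. All 6 skeletal muscle markers were also below every control in every JunBΔep mouse, with sums of 1366 to 3255 FPKM against 14190 to 18220 FPKM, and their part in the Serpinb6a and Serpinb6d values was not tested.

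Serpinb6d, which lies on the other strand in the same cluster (chromosome 13, 33753274 to 33763450), also had lower values. Serpinb6d was at 57.7, 33.6 and 41.9 FPKM across controls and at 22.1, 26.5 and 29.3 FPKM across JunBΔep mice. The groups did not overlap, although the highest JunBΔep mouse lay close to the lowest control. Limma estimated a log2 difference of −0.74 (SE 0.24, unadjusted p = 0.0209 and adjusted p = 0.447) and −0.63 without the library labelled JunBΔep 0. Without both mice numbered 0 it was −0.42. The loop codons of this pair are shown because both genes had lower values in every JunBΔep mouse, with capitals in Serpinb6d where its bases differ from Serpinb6a.
Serpinb6a, chr13:34009988-34010068, minus strand: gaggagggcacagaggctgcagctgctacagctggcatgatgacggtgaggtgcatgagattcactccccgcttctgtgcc
Serpinb6d, chr13:33763195-33763272, plus strand: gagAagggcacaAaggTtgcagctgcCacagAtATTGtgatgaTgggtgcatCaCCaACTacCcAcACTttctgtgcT
They differed at 21 bases with 5 gapped positions, an identity of 72.7% over the loop and of 81.0% over the rest of the coding sequence. Only 12.5% of the 50-base windows of Serpinb6a and 4.67% of those of Serpinb6d recurred in another member with at most 2 mismatches, so the Serpinb6a and Serpinb6d levels are less exposed to shared reads than those of the Serpinb3 genes.

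The other Serpinb6 genes were low, apart from Serpinb6c in the library labelled JunBΔep 0. Serpinb6c was at 3.71, 0.526 and 1.16 FPKM in controls, at 43.6 FPKM for the library labelled JunBΔep 0, and at 0.425 and 0.486 FPKM in JunBΔep 1 and 2, which were below every control. Its log2 difference of 0.83 (SE 1.58, limma adjusted p = 0.862) turned to −1.01 without the library labelled JunBΔep 0, and 25.6% of its windows recurred in another member. Serpinb6b was at 1.35, 0.778 and 1.63 FPKM across controls and at 2.93, 0.575 and 1.94 FPKM across JunBΔep mice, with a log2 difference of 0.28 (SE 0.48, limma adjusted p = 0.841) that became −0.081 without the library labelled JunBΔep 0. Serpinb6e was listed at 0 in control 0 and reached at most 0.693 FPKM, in control 1. Together the 5 Serpinb6 genes summed to 292 to 345 FPKM across controls and to 229, 98.4 and 153 FPKM across JunBΔep mice, with every JunBΔep sum below every control.

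Serpinb1a is the mouse counterpart of the human monocyte and neutrophil elastase inhibitor, which blocks elastase, cathepsin G and proteinase 3. It was at 18.8, 14.8 and 9.55 FPKM in controls, at 82.8 FPKM for the library labelled JunBΔep 0, and at 5.11 and 8.53 FPKM in JunBΔep 1 and 2. That library was above every control and the other JunBΔep mice were below every control. In the fit the log2 difference was 0.17 (SE 1.01, limma adjusted p = 0.960) with all mice and −1.01 without the library labelled JunBΔep 0 (limma adjusted p = 0.564). The 7 neutrophil markers, S100a8 among them at 24456 FPKM, summed to 24995 FPKM in that library and to 25.2 and 140 FPKM in JunBΔep 1 and 2, and their part in the Serpinb1a value was not tested. The neutrophil proteases were highest in control 0, where Elane, neutrophil elastase, was at 35.7 FPKM, Prtn3, proteinase 3, at 47.3 FPKM and Ctsg, cathepsin G, at 14.0 FPKM. Elane was at most 1.43 FPKM in 4 of the other mice. It was listed at 0 in the library labelled JunBΔep 0, where Krt14 and S100a9 were also listed at 0, so a low level and a failed estimate cannot be told apart for Elane there. Prtn3 was at 0.876 FPKM in that library, the lowest of the 6 mice. Ctsg was at 0.468 FPKM there, inside its control range of 0.253 to 14.0 FPKM.

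The near relatives of Serpinb1a were scarce. Serpinb1b was at 0.0369 to 0.0561 FPKM across controls and at 2.33, 0.0939 and 0.0556 FPKM across JunBΔep mice, and it too passed the filter only through the library labelled JunBΔep 0. Serpinb1c was at 0.374 to 0.829 FPKM across controls and at 0.140, 0.151 and 0.418 FPKM across JunBΔep mice. Of the 3 genes, 20.4% to 20.7% of 50-base windows recurred in another member.

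Serpinb9 codes for the inhibitor with which cytotoxic lymphocytes protect themselves from granzyme B. It was at 3.05, 2.89 and 2.75 FPKM across controls and at 4.70, 1.39 and 4.51 FPKM across JunBΔep mice. The library labelled JunBΔep 0 and JunBΔep 2 were above every control and JunBΔep 1 below, and the log2 difference was 0.11 (SE 0.43, limma adjusted p = 0.934) and −0.14 without the library labelled JunBΔep 0. Gzmb, granzyme B, was at 0.0510 to 0.130 FPKM across controls and at 1.48, 0.128 and 0.320 FPKM across JunBΔep mice, with overlapping groups. Gzmm, granzyme M, was at 1.48 to 1.79 FPKM across controls and at 0.452, 1.18 and 1.34 FPKM across JunBΔep mice. Of 6 cytotoxic lymphocyte markers, 5 were tested, all with negative log2 differences. Limma called 0 of them, where 1.38% of all tested genes were called lower. At an unadjusted p below 0.05 the count was also 0, where 6.13% of all tested genes were lower. The 6 markers summed to 11.1 to 23.5 FPKM across controls and to 4.92, 9.57 and 19.1 FPKM across JunBΔep mice, lowest in the library labelled JunBΔep 0, and their part in the Serpinb9 values was not tested. Serpinb9b was at 0.329 to 1.12 FPKM across controls and 0.199 to 0.568 FPKM across JunBΔep mice. Serpinb9c, Serpinb9d, Serpinb9f and Serpinb9g were above 0 only in the library labelled JunBΔep 0, at 0.0213 to 0.0349 FPKM, and Serpinb9e only there and in control 0. Serpinb9d to Serpinb9g share 70.6% to 96.4% of their 50-base windows with another member, so the single values cannot be assigned with certainty.

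**Figure D5:**
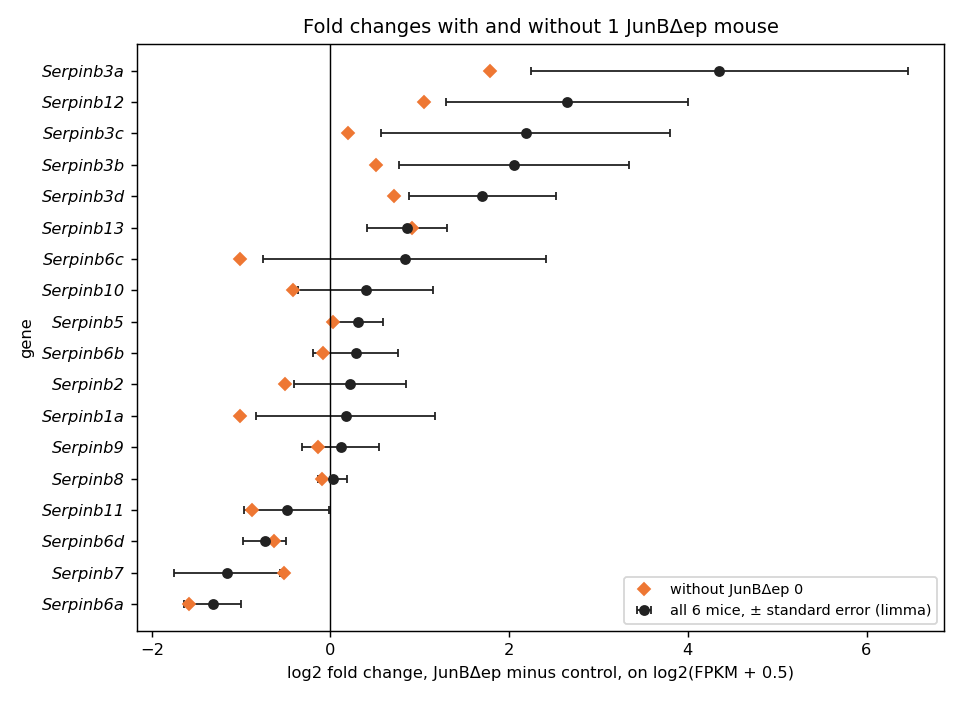
Log2 difference of JunBΔep against control skin on the log2(FPKM + 0.5) scale for the 18 Serpinb genes averaging 1 FPKM or more. Black points with bars are the limma estimates ± standard error over all 6 mice, and orange diamonds leave out the library labelled JunBΔep 0. The upper 5 genes stay positive and move toward 0, and Serpinb6a, Serpinb6d, Serpinb7 and Serpinb11 stay negative.

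Among 22 proteases and partners that the clade is known to meet, 21 were tested and 0 were called by limma. Of all tested genes, 0% were called higher and 1.38% lower. At an unadjusted p below 0.05 the count was 0, where 1.43% of all tested genes were higher and 6.13% lower. The median log2 difference of the 21 was 0.09, with 11 positive and 10 negative, beside 0.03 over all tested genes. The cysteine cathepsins had overlapping groups: Ctsl was at 180 to 199 FPKM across controls and 150 to 266 FPKM across JunBΔep mice, and Ctsb at 172 to 194 and 169 to 263 FPKM. Ctss, of antigen-presenting cells, was at 39.6 to 62.1 FPKM across controls and at 137, 12.02 and 37.9 FPKM across JunBΔep mice, above all controls in the library labelled JunBΔep 0 and below all in JunBΔep 1 and 2. Casp14, the caspase of cornifying keratinocytes, was at 18.7 to 46.6 FPKM across controls and at 303, 73.0 and 37.4 FPKM across JunBΔep mice.

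Protease inhibitors outside the clade gave 17 tested genes, of which limma called 0 (of all tested genes, 0% higher and 1.38% lower). The median log2 difference of the 17 was −0.32 (6 positive and 11 negative), beside 0.03 over all tested genes. At an unadjusted p below 0.05, 1 was higher (1.43% of all tested genes) and 1 lower (6.13%), both named after their values were seen. Wfdc2, an epithelial relative of Slpi, was at 0.520, 0.170 and 1.97 FPKM in controls and at 16.0, 4.67 and 32.2 FPKM across JunBΔep mice (log2 difference 3.56, limma adjusted p = 0.158). All 3 JunBΔep mice were above all controls, and the value was 3.45 without the library labelled JunBΔep 0. Serpinf1, which codes for a secreted serpin that does not inhibit proteases, was at 104 to 154 FPKM across controls and 46.0 to 78.8 FPKM across JunBΔep mice (log2 difference −1.06, limma adjusted p = 0.217). Slpi, a secreted inhibitor of neutrophil elastase, was at 19.1, 1.54 and 9.46 FPKM across controls and at 602, 3.89 and 11.4 FPKM across JunBΔep mice, with its highest value, as for the Serpinb3 genes, in the library labelled JunBΔep 0. Cstb, the cytosolic cystatin of cathepsins, was at 163, 172 and 134 FPKM across controls and at 722, 199 and 169 FPKM across JunBΔep mice. Spink5, the epidermal inhibitor of kallikreins, was at 50.7 to 84.4 FPKM across controls and at 225, 56.7 and 82.7 FPKM across JunBΔep mice. Serpina1a, Serpinc1 and Serpinf2, serpins of the liver, were at 28.1, 32.9 and 21.0 FPKM in control 0 and at most 0.539 FPKM in the other 5 mice. Control 0 was also the library with the high liver marker sum, a list that includes Serpina1a.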

How the data were processed

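Poly(A) RNA of 6 skin samples was sequenced with a stranded kit. The authors checked reads with FastQC, aligned them to mm9 with TopHat2 2.0.10, Bowtie 1.0.0 and SAMtools 0.1.19 through the nextpresso pipeline, and deposited FPKM values per gene and mouse. Cufflinks is named in the submitters' processing notes without a version or role. Their own test used read counts, not analysed here. Per mouse the deposited FPKM add up to 481078 to 630363; read depth is unknown, so no counting interval is given. A 0 can be a failed estimate. FPKM + 0.5 was log2-transformed and fitted in limma 3.58.1 (R 4.3.3) with an intensity trend, two-sided and without a block, over the 17021 genes that averaged 0.1 FPKM or more. Differences on this scale understate low genes.

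All members are named, and differences are given for the 18 averaging 1 FPKM or more; Junb, the listed proteases and inhibitors, and cell markers are the other genes named. Members and lists were chosen with earlier results of these data known. Alternatives were pseudocounts of 0.1 and 1, no filter or 1 FPKM, 3 rescalings, limma without trend or robust, 2 blocks, and each mouse left out; leaving out both mice numbered 0 was added after seeing the data. The fit was tested on simulated data. Alignments used Biopython 1.88, and figures matplotlib 3.10.9.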

Additional observations from a re-analysis of the deposited data

How the results depend on the processing

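Of 324 comparisons of a member's log2 difference with an alternative, 306 kept their direction and 18 turned, in 7 members, and none passed the threshold (lowest adjusted p 0.0968 from limma, for Serpinb6a with values rescaled to a sum of 1000000). The count of members called and of listed proteases called was 0 in every alternative run. With each mouse left out in turn, the log2 difference ran from −0.42 to 1.11 for Serpinb10, −1.01 to 0.93 for Serpinb1a, −0.51 to 0.72 for Serpinb2, −0.081 to 0.76 for Serpinb6b, −1.01 to 1.77 for Serpinb6c, −0.095 to 0.095 for Serpinb8 and −0.14 to 0.59 for Serpinb9. Without both mice numbered 0 these were −0.42, −0.80, −0.43, −0.026, −0.45, −0.056 and −0.11, and Serpinb8 was at −0.012 under quantile normalization. With each mouse left out in turn, the members' median ran from −0.13, without the library labelled JunBΔep 0, to 0.65, without JunBΔep 1, and it was −0.23 without both mice numbered 0. Over all genes, 235 were called lower; 0 were with the replicate block, 0 with a block on the naming series of the samples, 0 without both mice numbered 0, and 0 to 251 with each mouse left out (0 without any 1 control or JunBΔep 1, 120 without JunBΔep 0). Genes called higher numbered 0 to 11 in the same runs, 11 without JunBΔep 0. The cause was not tested. Deviations of same-numbered mice correlated at 0.12, −0.23 and −0.43, and those of other pairs at −0.37 to 0.46. Deviations within a group of 3 sum to 0 by construction, so these values cannot decide whether the numbers pair the mice. Within the 2 naming series, Serpinb6a was −0.88 and −1.41, Serpinb6d −0.98 and −0.58, Serpinb3a 9.59 and 1.58, and Serpinb7 −2.65 and −0.11. Rescaling moved the median of all genes by under 0.1. Depth limits are unknown without counts.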
